A study of Drosophila melanogaster with 3 samples.

Results

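The 9 genes described here are the muscle genes Tm1, Tm2, sls, Mhc, Act57B, up, wupA, bt and Mef2 of Drosophila melanogaster, 9 of 13968 protein-coding genes. They were chosen by name for their known role, with earlier results of these data known, and all 9 names matched a gene in the Release 6 models. Together they have 30 promoters among 18945 of all protein-coding genes, where starts of 1 gene within 100 bp of each other count as 1 promoter. Of these genes, 8 encode proteins of the contractile apparatus, and Mef2 encodes a transcription factor. The binding of the chromatin protein Lhr (Lethal hybrid rescue) was mapped by chromatin immunoprecipitation and sequencing (ChIP-seq) in 1 group of embryos. The line was transgenic and stably expressed Lhr carrying eGFP at its C-terminal end. Whole embryos of pooled sexes, 0 to 14 hours old, were used, and an antibody against GFP recovered chromatin that had been sonicated to 200 to 800 bp. Per the labels there were 3 biological replicates, each 1 library. There was no second group, so no difference between conditions could be tested. Muscle cells were not separated from the rest of the embryo, and binding in muscle and in other cells cannot be told apart.

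Muscle contraction in insects rests on the sarcomere, in which thick filaments of myosin slide along thin filaments of actin. Tropomyosin lies along the thin filament, troponin moves it in response to calcium, and giant elastic proteins tie the filaments to the Z-disc. These genes are switched on as embryonic muscles differentiate, many of them by MEF2, and several use alternative promoters or splicing to serve different muscles or cells outside muscle. Lhr is known as a partner of Hmr (Hybrid male rescue) and of heterochromatin protein 1.

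A start site was called bound when a peak summit lay within 500 bp of it. The deposited final list, thresholded by the authors on the irreproducible discovery rate (the IDR list), held 5190 peaks. It matched, peak for peak, the top 5190 of the combined relaxed list, which had 20761. The relaxed lists of replicates 1, 2 and 3 held 22598, 30000 and 18934 peaks. For comparisons at equal length the 5190 strongest peaks of each library were used. Signal is the authors' enrichment value and has a meaning only within its own list, where rank 1 is the strongest peak. Read depth was unknown, so no interval can be given for a single peak. Distances from a start are negative upstream of it.

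Lhr-eGFP was at a start site of 3 of the 9 genes, Tm1, sls and Mef2, and at only some promoters of Tm1 and Mef2. In the IDR list these 3 genes make 33.3% of the members, against 29.2% of all protein-coding genes. At 6 of the 30 promoters a summit lay within 500 bp, which is 20.0% against 25.6% of all promoters. They were promoters 2, 3, 4 and 5 of Tm1, the single promoter of sls and promoter 1 of Mef2, numbered along each gene from its first start. Both member shares are near those of all genes and promoters. Of the 6 members with at least 3 promoters 2 were bound, or 33.3%, against 52.8% of all such genes.

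The same 3 genes were bound among the strongest peaks of each library. The count was 3 of 9 in replicate 1, where 26.6% of all genes were bound. It was also 3 in replicate 2 against 31.2%, and 3 in replicate 3 against 29.1%. In these lists 6, 5 and 6 of the 30 promoters were bound. The share of all promoters was counted for the IDR and combined lists only, so these library counts have no background beside them. The full relaxed lists added members, with 6 of 9 bound in the combined list against 45.5% of all genes and 15 of 30 promoters against 42.1%. In the relaxed lists of replicates 1, 2 and 3 there were 6, 8 and 6 bound members against 42.6%, 54.5% and 45.2% of all genes. The members that appear only in the relaxed lists therefore do so beside a large rise of the background.

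**Figure D1:**
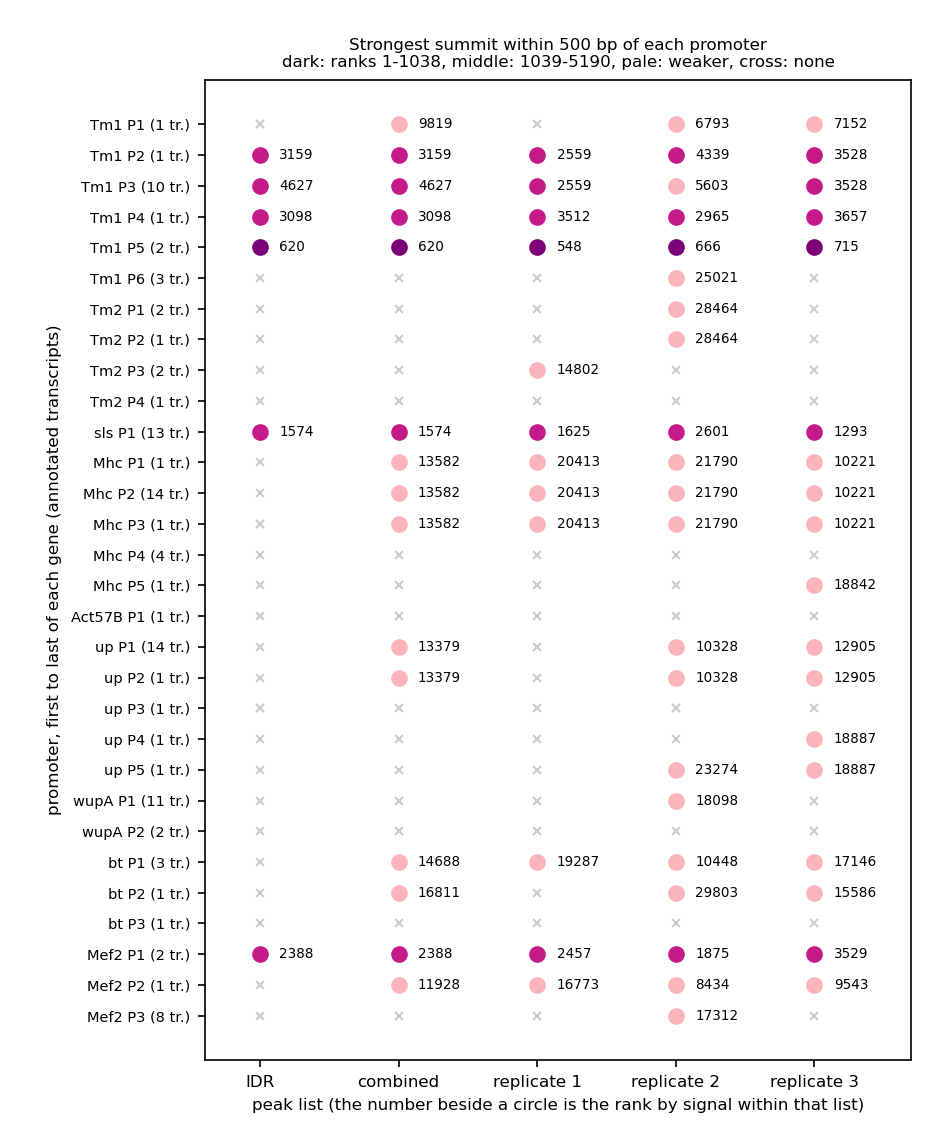
Each row is 1 of the 30 promoters with its number of annotated transcripts, and each column is 1 deposited peak list. A circle marks the strongest summit within 500 bp of the promoter, with its rank by signal in that list, and a cross marks none. Tm1 promoter 5 is dark in all lists, with ranks between 548 and 715, while the promoters with most transcripts in Mhc, up and wupA have pale circles or crosses.

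The sequences at the bound start sites on chromosomes 3R and 3L are shown because they carry the binding, together with up promoter 1 for contrast. That promoter is called unbound for the IDR list only. Weak summits lay within 500 bp of it at rank 13379 of the combined list, 10328 of replicate 2 and 12905 of replicate 3. Each is from Release 6 (dm6), read 5′ to 3′ on the strand of its gene. The first 5 reach 100 bases to each side of an IDR summit, and the last runs from 200 bases before the first start of up to the first 30 bases after it. Capitals mark matches on either strand to the E-box CANNTG, the TATA box TATAAA, the GAGA-factor word GAGAG, the BEAF-32 word CGATA or the MEF2 consensus, and matches to GATA are left in lower case. They come from chr3R:15280922-15281122 (+), chr3R:15281139-15281339 (+), chr3R:15286103-15286303 (+), chr3R:15287818-15288018 (+), chr3L:2115768-2115968 (−) and chrX:13602549-13602778 (−).
Tm1 promoter 2, stronger summit: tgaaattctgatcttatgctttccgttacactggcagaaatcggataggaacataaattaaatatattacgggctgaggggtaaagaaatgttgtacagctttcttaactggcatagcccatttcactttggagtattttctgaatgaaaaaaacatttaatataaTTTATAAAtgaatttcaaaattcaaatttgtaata
Tm1 promoters 2 and 3, weaker summit: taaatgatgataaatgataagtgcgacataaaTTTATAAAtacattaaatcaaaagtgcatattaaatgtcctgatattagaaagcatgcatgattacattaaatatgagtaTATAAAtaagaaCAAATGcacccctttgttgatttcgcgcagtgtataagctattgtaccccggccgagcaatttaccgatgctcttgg
Tm1 promoter 4: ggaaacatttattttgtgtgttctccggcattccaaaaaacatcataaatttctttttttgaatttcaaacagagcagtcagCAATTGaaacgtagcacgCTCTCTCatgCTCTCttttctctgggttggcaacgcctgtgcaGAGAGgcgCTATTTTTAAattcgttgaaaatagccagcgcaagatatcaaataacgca
Tm1 promoter 5: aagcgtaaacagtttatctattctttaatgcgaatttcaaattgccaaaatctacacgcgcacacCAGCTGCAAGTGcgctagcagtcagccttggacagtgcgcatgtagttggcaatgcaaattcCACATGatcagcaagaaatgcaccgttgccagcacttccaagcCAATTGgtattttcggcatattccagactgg
sls promoter 1: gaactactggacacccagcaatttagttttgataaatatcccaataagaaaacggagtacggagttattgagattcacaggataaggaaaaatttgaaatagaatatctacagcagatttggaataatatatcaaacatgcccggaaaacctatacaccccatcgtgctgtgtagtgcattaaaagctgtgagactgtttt
up promoter 1, unbound: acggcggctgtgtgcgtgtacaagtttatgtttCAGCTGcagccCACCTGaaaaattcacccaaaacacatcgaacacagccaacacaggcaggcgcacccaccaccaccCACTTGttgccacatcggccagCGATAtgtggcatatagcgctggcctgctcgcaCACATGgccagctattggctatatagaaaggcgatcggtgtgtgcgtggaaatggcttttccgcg

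The window at Tm1 promoter 5 held 4 E-box words, that at promoter 4 held 1, and the stronger and weaker summits before it held 0 and 1. The window at up promoter 1 also held 4. Windows laid out like it, not shown, held 2 at Mhc promoter 2, 1 at wupA promoter 1, 1 at Tm1 promoter 6 and 0 at Tm2 promoter 1. These windows have 230 bases placed by a start, against 201 placed by a summit, so the counts are not like for like. The sls window held none of the capitalised words, but 5 matches to GATA. The window at Tm1 promoter 4 held 4 GAGAG matches and the only MEF2 consensus match among the 14 IDR summits in the members and their flanks, 160 bp upstream of the start. At the weaker summit before promoters 2 and 3 there were 3 TATAAA matches, of which 2 overlap on opposite strands, with centres at −198, −196 and −118 bp from promoter 2. A match describes the letters and does not show that a factor binds there.

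Tm1 encodes tropomyosin 1, which in muscle covers the thin filament and which also has forms outside muscle. It lies on 3R at 15278220 to 15308779 on the plus strand (FBgn0003721) and has 18 annotated transcripts from 6 promoters. Lhr-eGFP was strongest at promoter 5, the start at 15288012 of transcripts RC and RI. Their product, the atypical tropomyosin Tm1-I/C, is known in the female germline for its part in the transport of oskar mRNA by kinesin.

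At promoter 5 the IDR summit stood at 15287918, 94 bp upstream of the start, with signal 648.0 and rank 620. In replicate 1 the signal was 246.9 at rank 548, in replicate 2 it was 178.0 at rank 666, and in replicate 3 it was 220.9 at rank 715. The summit was thus high among the strongest peaks of every library. Its position varied by 7.81 bp (SD, n = 3), the smallest spread among the 14 IDR summits of the members. For the 13 longer Tm1 transcripts, which start upstream, this place is inside an intron. The nearest start of another gene, CG45218, was 2881 bp away.

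Promoter 4 at 15286419 gives rise to the single transcript RH and was bound more weakly. Its summit at 15286203, 216 bp upstream, had signal 270.8 and rank 3098. Replicates 1, 2 and 3 gave signals of 88.4, 85.1 and 84.2 at ranks 3512, 2965 and 3657. All 3 libraries placed it among their strongest peaks, in the weaker part of those lists.

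Promoters 2 and 3 lie close together, and a pair of summits stood upstream of both. Promoter 2 at 15281371 starts transcript RG, and promoter 3 at 15281532 and 15281550 starts 10 transcripts, more than any other Tm1 promoter. The stronger summit, at 15281022, was 349 bp upstream of promoter 2, with signal 267.2 and rank 3159. Replicates 1, 2 and 3 gave it signals of 111.4, 64.4 and 86.8 at ranks 2559, 4339 and 3528. The weaker summit, at 15281239, was 132 bp upstream of promoter 2 and 293 bp upstream of promoter 3, with signal 192.3 and rank 4627. Its signals were 31.6, 51.8 and 64.5 in replicates 1, 2 and 3, and only replicate 3, with rank 5010, had it among its strongest peaks.

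Promoter 3 therefore counts as bound by a narrow margin. The stronger summit lay 510 bp from its first start, just outside the window. Among the strongest peaks of single libraries it was bound in replicate 1, by a summit at −422 bp and rank 2559, and in replicate 3, at −499 bp and rank 3528, but not in replicate 2. In each list of IDR summits shared by 2 libraries promoter 3 was not bound, and it was not bound when a summit counted only for its nearest start.

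The first and last Tm1 promoters were not bound in the IDR list. Promoter 1 at 15278220, the start of RT, had a weak summit in the combined list at rank 9819, 213 bp downstream, with starts of MRG15 and l(3)neo43 close by. Promoter 6 at 15290944 and 15290946, the start of RA, RQ and RR, had a summit in replicate 2 alone, at rank 25021. Promoters 1 to 3 share the annotated coding start at 15284649, whereas promoters 4, 5 and 6 have coding starts of their own at 15287455, 15288597 and 15291382. The summits at promoters 4 and 5 thus stood at starts with their own coding start, and the third such promoter, promoter 6, had none in the IDR list.

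**Figure D2:**
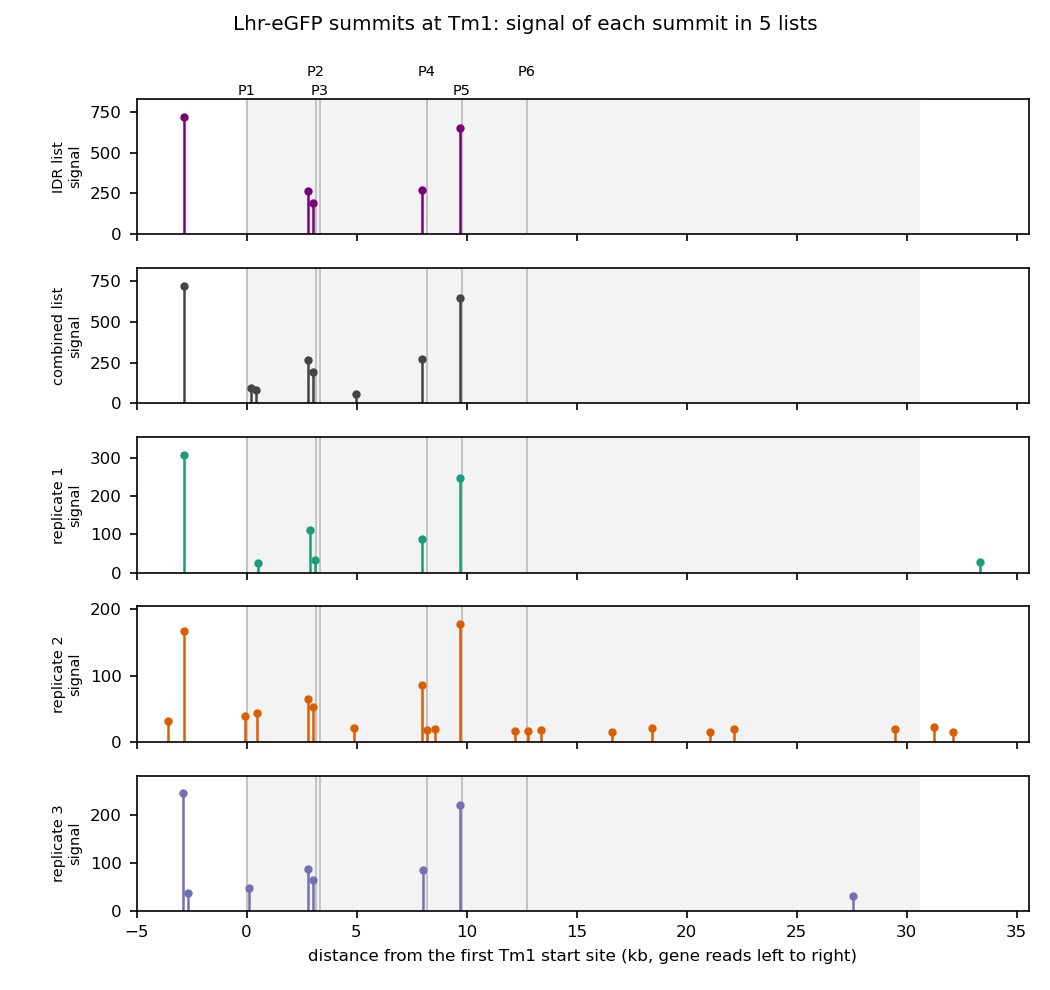
Signal of each summit (vertical axes, scaled separately because lists have no common scale) against distance in kb from the first Tm1 start site, in the IDR list, the combined list and the 3 library lists. Shading marks the gene, grey lines the promoters P1 to P6. The summit at P5 is the highest inside the gene in all 5 lists, and the weak scattered summits past P6 are found mainly in replicate 2.

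The strongest summit in the Tm1 flanks belongs to other starts. It stood at 15275361 with signal 719.8 and rank 464, 120 bp from a start of Cp190 and 161 bp from that of CG4338. Among the 4085 genes bound in the IDR list, 14.4% had a stronger start-site summit than Tm1. The genes next to it in signal were Regnase-1 with 648.1, its summit at −96 bp from a start, and pcs with 646.6, at −66 bp. The measure of likeness is the difference in signal within the IDR list alone.

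Tm2 encodes the other tropomyosin, a partner of Tm1 in muscle thin filaments. It lies next to Tm1 on 3R at 15310193 to 15315197 and has 6 transcripts from 4 promoters. No summit of the IDR or combined list lay in the gene or within 5 kb of it. A summit at rank 28464 of replicate 2 lay within 500 bp of promoters 1 and 2, and one at rank 14802 of replicate 1 lay at −475 bp from promoter 3. Promoter 4 had none in any list. The neighbouring tropomyosin genes thus differ, with 4 promoters bound in Tm1 and none in Tm2.

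The other proteins of the thin filament showed the same absence from the IDR list. Act57B, on 2R at 20944021 to 20946431, encodes a muscle actin of embryo and larva and is a known target of MEF2. No summit of any of the 5 lists lay within 500 bp of its only start. A weak site at −4110 bp from that start recurred in all 3 libraries, at rank 8307 of the combined list. The nearest IDR summit was 5716 bp from the start.

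The troponin T gene up, on X at 13593474 to 13602578, has 18 transcripts from 5 promoters. Promoter 1, with 14 of the transcripts, shared a weak combined summit at rank 13379 with promoter 2. That combined summit stood at 13602372, and replicate 3 had one near it, at 13602394 and rank 12905. Replicate 2 had a summit at 13602584 and rank 10328, more than 100 bp away and thus a separate site. Replicate 1 had none within 500 bp of either promoter. The troponin I gene wupA, on X at 18105568 to 18116922, has 13 transcripts from 2 promoters. Only replicate 2 had a summit near promoter 1, 490 bp from a start and at rank 18098. Promoter 2 of wupA had none. Of the 5 combined summits in the gene and its flanks, 2 recurred in all 3 libraries. They stood at the start of Mvb12, at rank 6117, and in a wupA intron at 18108925, at rank 11589.

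Mhc, on 2L at 16766566 to 16788766, encodes the single muscle myosin heavy chain of the fly and forms the thick filament. It has 21 transcripts from 5 promoters, 14 of them from promoter 2 at 16766734. No IDR summit lay in the gene or its flanks, and the nearest was 23188 bp from a start. In the combined list a summit at rank 13582 stood 61 bp upstream of promoter 2. The libraries had weak summits there at ranks 20413, 21790 and 10221, at 16766955, 16766778 and 16766635. These positions lay more than 100 bp apart, so no single place at the Mhc start recurred in all 3 libraries.

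The 6 members without a bound start in the IDR list have 20 promoters in all. Each of these promoters lay between 2437 and 25233 bp from the nearest IDR summit. Across the members, 32 sites in any list lay within 500 bp of a member's own start, and 6 of them were found in all 3 relaxed library lists. These 6 were the same 6 that stood in the IDR list.

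The giant genes sls and bt encode the titin-like proteins of fly muscle, Sallimus at the Z-disc and Projectin, the product of bent, which joins the thick filament, and their summit patterns differed. The gene sls lies on 3L at 2039681 to 2115611 on the minus strand, and its 13 transcripts share 1 start at 2115611. A summit stood 257 bp upstream of this start, at 2115868, with signal 409.5 and rank 1574. The signals in replicates 1, 2 and 3 were 146.0, 92.4 and 165.1, at ranks 1625, 2601 and 1293. All 3 libraries thus had it among their strongest peaks, and its position varied by 13.5 bp (SD, n = 3). No start of another gene was closer than 2630 bp, that of asRNA:CR45802.

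Past its start, sls was empty. None of the 5 lists had a summit inside the 75931 bp of the gene, and the start-site summit was the only one of the combined list in the gene and its flanks. That is 0.0116 combined summits per kb over 85.9 kb, against 0.151 over all arms. Among 468 protein-coding genes whose region with flanks spans at least 50 kb, 29 had a lower density, and the median was 0.110.

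In bt, on chromosome 4 at 724400 to 776474 on the plus strand, the starts were not bound and the gene body held many weak summits. Promoters 1 and 2, which start 4 of the 5 transcripts, had combined summits at ranks 14688 and 16811, and promoter 3 had none in any list. By comparison 52.5% of the protein-coding genes of chromosome 4 were bound in the IDR list. An IDR summit stood 2437 bp upstream of the first start, at 721963, between genes, with signal 511.0 and rank 1050. Its signals in replicates 1, 2 and 3 were 187.5, 160.4 and 169.6, at ranks 1032, 869 and 1239. The summit thus recurred, at similar ranks, in every library. The second IDR summit, at 775461, was in a coding exon shared by all 5 transcripts near the end of the gene, with signal 194.0 and rank 4579. Its library ranks were 4566, 4903 and 3960.

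The density over bt was 0.419 combined summits per kb, higher than that of 455 of the 468 long regions. Chromosome 4 as a whole had 0.356 per kb. The other long regions of this chromosome had 0.648 at Cadps, 0.200 at pan and 0.202 at unc-13. Of the 26 combined summits in the bt region, 5 or 19.2% recurred in all 3 libraries, against 35.9% of all combined summits. Of the 24 outside the IDR list, 3 or 12.5% did so, against 18.6% of all those outside it. Most of the weak bt summits were thus not found in every library.

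**Figure D3:**
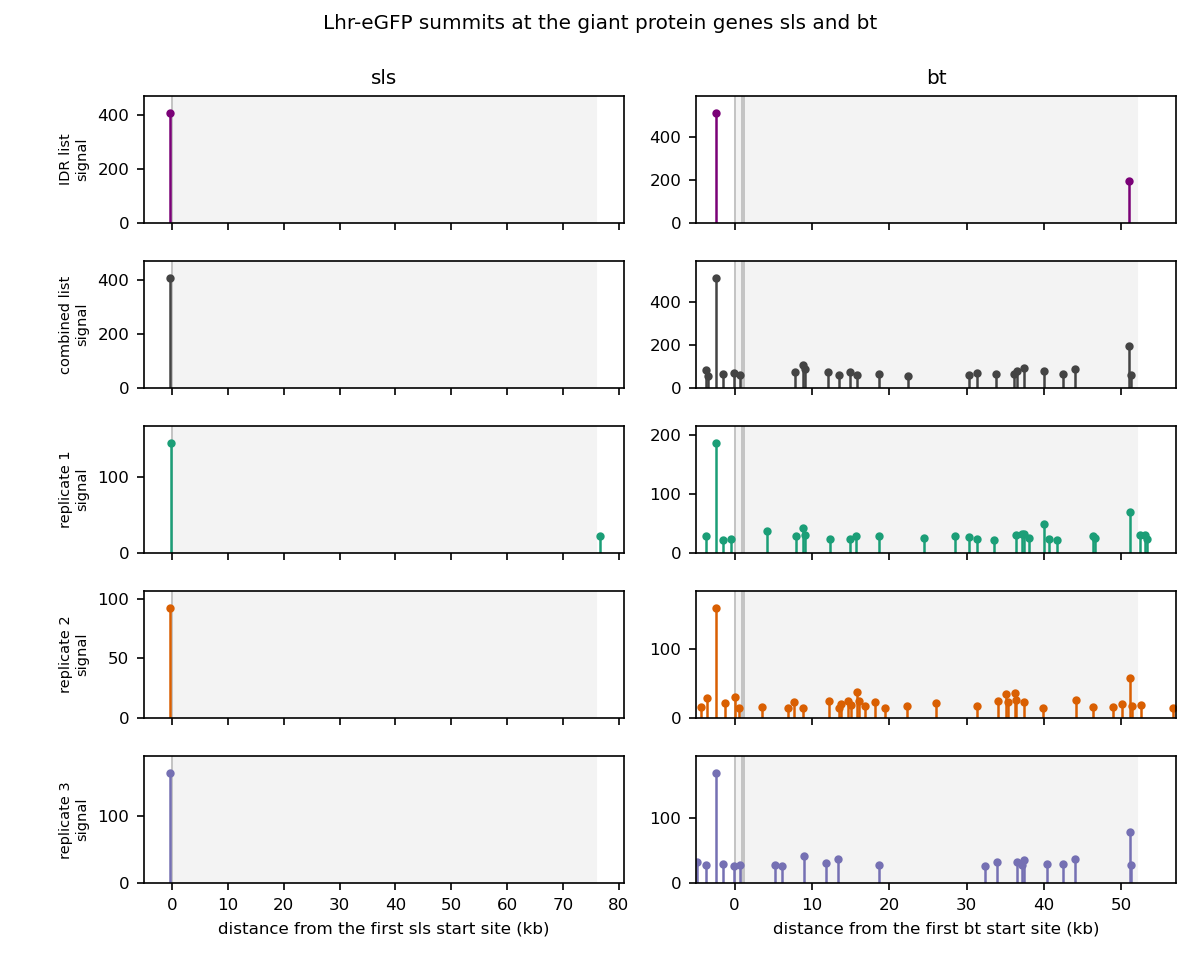
Signal of each summit (vertical axes, scaled separately for each list and gene) against distance in kb from the first start of sls (left) and bt (right) in the 5 lists. Shading marks the genes and grey lines the promoters. In sls the only summit shared by the lists is at the start, and in bt weak summits are spread over the gene, with stronger ones before the first start and near the end.

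Mef2 encodes the MADS-box transcription factor that drives the differentiation of embryonic muscle. It lies on 2R at 9913496 to 9958858 on the minus strand and has 11 transcripts from 3 promoters. Lhr-eGFP was at promoter 1, the farthest upstream, from which transcripts RF and RH start at 9958858. The summit at 9958914 was 56 bp upstream, with signal 324.9 and rank 2388. Replicates 1, 2 and 3 gave signals of 114.9, 110.9 and 86.8 at ranks 2457, 1875 and 3529. All 3 libraries had it among their strongest peaks, with positions that varied by 39.6 bp (SD, n = 3).

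The promoter with most Mef2 transcripts was not bound. Promoter 3 at 9929615, with 8 transcripts, had a summit in replicate 2 alone, at rank 17312. Promoter 2 at 9944764, the start of RG, had a combined summit at rank 11928. The libraries had weak summits near it at ranks 16773, 8434 and 9543, at 9945135, 9944634 and 9944791. These positions lay more than 100 bp apart, so no single place at promoter 2 recurred in all 3 libraries. All 3 promoters share the annotated coding start at 9921663, so they differ upstream of it.

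Inside Mef2 there were 3 further IDR summits away from starts. The strongest stood at 9942974 in the 5′ UTR of RG, 1790 bp downstream of promoter 2, with signal 584.2 and rank 797. Its library signals were 180.3, 174.2 and 229.0, at ranks 1104, 714 and 659. It was thus stronger than the summit at promoter 1 in every list. A summit in an intron at 9949216 had signal 301.2 at rank 2667 and library ranks of 1848, 2950 and 3954. Another in an intron at 9935952 had signal 183.7 at rank 4864, and 2 of the 3 libraries placed it among their strongest peaks.

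The remaining IDR summits near Mef2 lay at starts of its neighbours. The one at 9959917 was the strongest of the 14, with signal 1141.5 and rank 124, and it lay 161 bp from a start of Pal1 and 185 bp from that of Pdrg1. The one at 9910809, rank 1558, lay 84 bp from the start of Etf-QO. The summit at Mef2 promoter 1 was 635 bp from a start of Pal1, outside the window. The Mef2 region had 0.343 combined summits per kb, more than 435 of the 468 long regions.

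**Figure D4:**
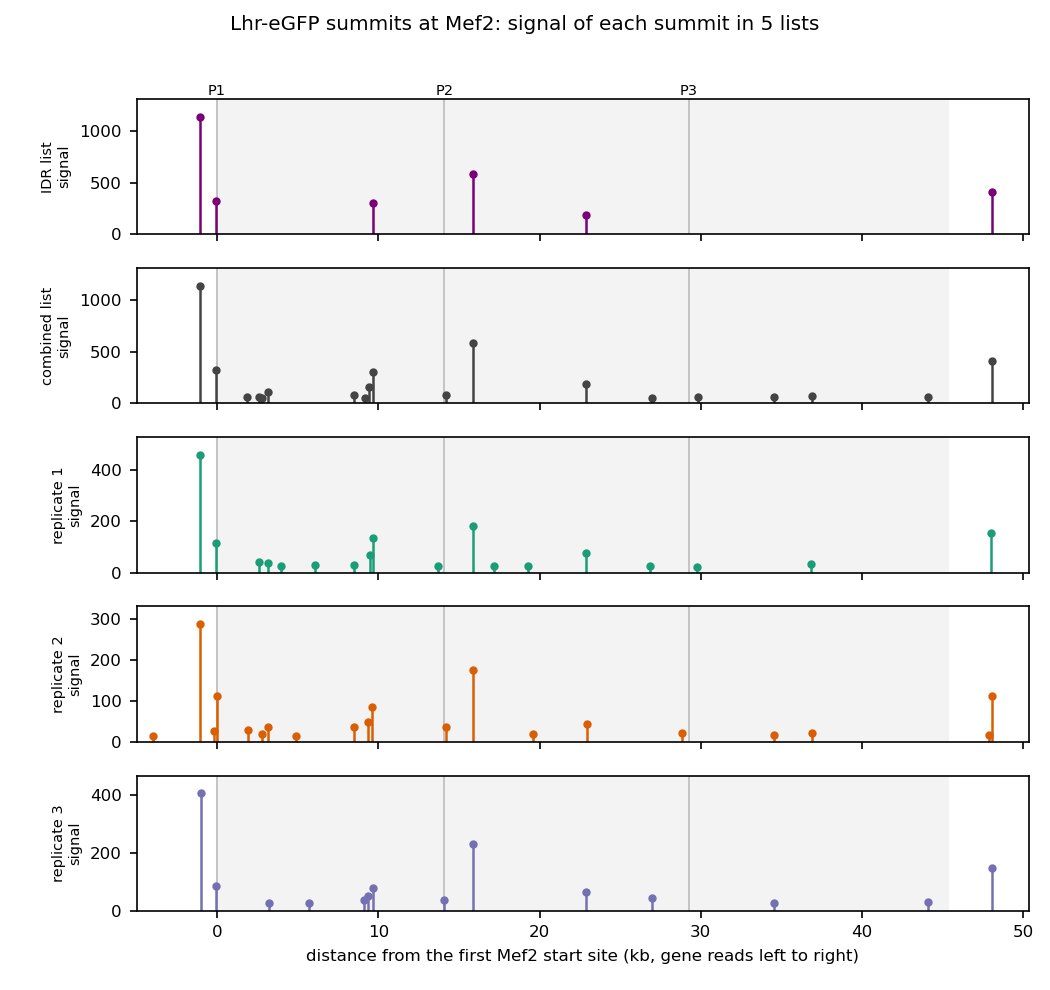
Signal of each summit (vertical axes, scaled separately for each list) against distance in kb from the first Mef2 start site in the 5 lists. Shading marks the gene and grey lines the promoters P1 to P3. In all 5 lists the summit at about 16 kb, past P2, is the highest inside the gene, and the highest of all lies about 1 kb before P1.

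Counted over genes and 5 kb flanks, 4 of the 9 members held an IDR summit, against 57.3% of all protein-coding genes, without matching for gene length. The 14 summits fell on Tm1 with 5, sls with 1, bt with 2 and Mef2 with 6. Of these 14, 12 had a counterpart within 100 bp among the strongest peaks of all 3 libraries, against 64.3% of all IDR summits. All 14 had one in all 3 relaxed library lists, as did 88.0% of all IDR summits. The exceptions among the strongest peaks were the Tm1 summit at 15281239 and the Mef2 summit at 9935952. The weakest member summit in the IDR list, at rank 4864, was followed outside it by sites at rank 5709, in a Mef2 intron at 9949457, and at rank 6117, in the flank of wupA at the start of Mvb12.

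Words of promoter factors were counted within 100 bp of the 14 summits and of the 6 at member starts, beside the share of all 5190 IDR windows. TATCGATA (the DRE) occurred at 0 of 14 against 7.21%, CAGGTA at 0 against 3.89%, and GGTCACACT, the word of M1BP, at 1 against 6.59%. That window was the one at Mef2 promoter 1, where the word lay 12 bp upstream of the start. GAGAG occurred at 2 of 14 against 19.3%, TATAAA at 3 against 33.0%, TCAGT at 3 against 32.3% and CGATA, which lies within the DRE, at 3 against 37.8%. CANNTG occurred at 9 against 60.6% and GATA, which lies within CGATA, at 12 against 79.3%. The MEF2 consensus occurred at 1 against 11.8%. Of the 6 windows at member starts, 6 held GATA, 4 CANNTG, 2 TATAAA, 1 GAGAG, 1 CGATA and none TATCGATA or TCAGT.

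Other muscle genes, in lists drawn up by known role, were mostly without a bound start. Of 27 other contractile and Z-disc genes, 4 were bound in the IDR list, or 14.8%, against 29.2% of all protein-coding genes. In the libraries 4, 5 and 4 were bound, a mean of 16.0% ± 2.14 (SD, n = 3). The strongest was Lasp, an actin-binding protein of the Z-disc, with signal 872.6 at rank 258 and its summit 78 bp upstream. It was followed by Msp300, a nesprin that places muscle nuclei, at rank 1496, Actn, the α-actinin of the Z-disc, at rank 2135, and tmod, which caps thin filaments, at rank 2640. The Lasp summit also lay 78 bp from a start of CG43954, and the Actn summit lay 111 bp from that of usp. The muscle actins Act79B, Act87E and Act88F were not bound in the IDR list. Act87E was bound among the strongest peaks of 1 library and had a summit at rank 5284 of the combined list. It also had a summit within 500 bp of a start in the relaxed lists of all 3 libraries. Of 15 myogenic regulators 2 were bound in the IDR list, or 13.3%, with the same count of 2 among the strongest peaks of each library. They were tin, which specifies the heart and visceral muscle, with signal 561.0 at rank 874, and htl, an FGF receptor of the mesoderm, with signal 299.9 at rank 2680. The homeobox genes ap and bap and the forkhead gene bin were not bound in the IDR list. The combined list had 10 of the 27 contractile and Z-disc genes and 3 of the 15 regulators bound. In that list 45.5% of all protein-coding genes were bound. Over the gene and its flanks the counts ran higher. An IDR summit lay there for 19 of the 27, or 70.4%, and for 9 of the 15, or 60.0%. The share of all protein-coding genes was 57.3%. Gene length was not matched, and a longer region has more room for a summit.

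**Figure D5:**
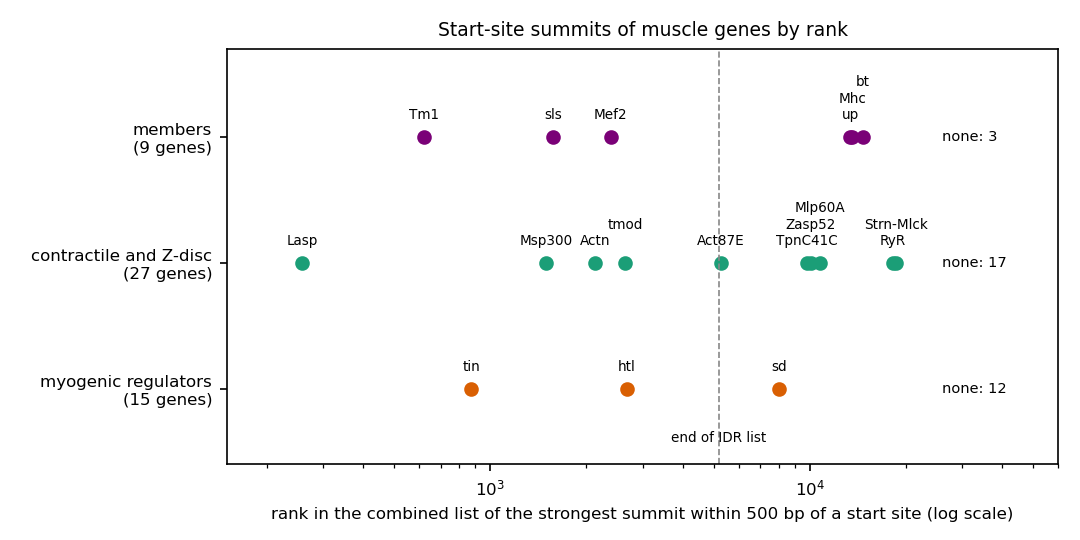
Rank in the combined list (log scale) of the strongest summit within 500 bp of a start, for the 9 members, 27 other contractile and Z-disc genes and 15 myogenic regulators. The dashed line is the end of the IDR list at rank 5190, and the number at the right counts genes with no such summit. Tm1, sls and Mef2 lie left of the line with 4 and 2 genes of the other lists.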

How the data were processed

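The authors' deposited peak lists on dm6 were used. Per the labels they derive from 3 libraries and 1 shared control alignment, which is not analysed here. Each holds, per peak, a signal value computed by the authors (an enrichment within that list), and a summit. The cut on the IDR is not given in the sources used here, nor are the aligner and the peak caller. Lists on dm3 and signal tracks were not used.

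Summits (peak start plus offset) were compared in Python 3.11.15 with start sites of Ensembl release 115 models (BDGP 6.54) and the Release 6 sequence, which is the assembly of the lists. Plots were drawn with matplotlib 3.10.9. Windows were 500 bp, flanks 5 kb, and counterparts between libraries lay within 100 bp. The rules were tested on simulated data. No test was possible with 1 group. The members and lists were chosen with earlier results of these data known, the other muscle genes by known role. The names Unc-89 and CF2 matched no gene. Named are all members, other genes with a start within 500 bp of a bound member summit, the bound genes of both lists, 3 unbound ones by alphabet, and the neighbours of Tm1 in signal. Genes outside that rule, such as Cp190, Pal1, Etf-QO, Mvb12, MRG15, l(3)neo43, CG45218 and Cadps, were named after their values were seen.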

Additional observations from a re-analysis of the deposited data

How the results depend on the processing

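The count of 3 bound members stayed between 2 and 3 for windows of 200 and 1000 bp, the stronger 50% of IDR peaks, peaks shared by all 3 libraries, protein-coding transcripts alone and the nearest start alone. With 200 bp sls was lost, and the combined list gave 6, where 45.5% of all genes were bound. Of the promoters, 6 in the IDR list, 3 remained with a window of 200 bp and 3 in the stronger 50% of peaks. In the combined list 15 were bound, against 42.1% of all promoters. The shares of all genes and promoters were not counted under the other changed settings. A narrower window or fewer peaks can only lower a count, so these falls have no background beside them. Without replicate 1, 2 or 3, members stayed at 3 and promoters at 5 in each case, the one lost being Tm1 promoter 3. The 14 summits became 8 without flanks, 8 in the stronger 50% of peaks, and 12 to 13 without a replicate. Lists without a replicate keep peaks shared by the other 2 libraries, so they are shorter by construction. The 12 summits with support in all libraries became 8 with counterparts within 50 bp. Depth is unknown, so a start without a summit may hold binding below what these lists show. No paired analysis was possible because there is 1 group.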

Other observations

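The giant genes differ in whether weak summits lie inside them. Inside bt, 15 of 21 combined summits, or 71.4%, stood in coding exons, which make up 51.7% of the gene. On chromosome 4 as a whole 19.8% of 480 combined summits stood in coding exons, and over all arms 3.10% of 20761. Those shares include summits between genes, and the coding share of their bases was not counted. They are therefore not like for like with the share inside bt. In sls coding sequence makes up 73.0% of the gene, and no combined summit stood in it. Of the 5190 IDR summits, 15 or 0.289% stood in coding exons, and the one near the end of bt is among them.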
